A study of Mus musculus with 42 samples.

Results

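The mTOR and AMPK signalling genes described here are 42 genes, chosen by name in both deposited tables, out of 37410 genes in the table of lateral habenula (LHb) and 40905 genes in the table of 5 other mouse brain regions. All 42 were found in both tables and all 42 passed the filter on low counts in every comparison. RNA with poly(A) tails was sequenced from 42 samples that the labels divide into 14 groups of 3 libraries. The mice were naive or had been restrained repeatedly (chronic restraint stress, CRS, a model of depression), and all of them had been through the forced swim test (FST), which scores immobility in water, 2 days before sacrifice. In LHb the naive mice were split at 50 s of immobility into naive low and naive high, the latter ranging up to 80 s. The stressed mice were split at 110 s into CRS high and CRS low, and CRS low began at 50 s, so its range includes the whole naive high range. The 5 other regions each had a naive and a CRS group, with no FST class in the labels. They were medial prefrontal cortex (mPFC), lateral hypothalamus (LH), nucleus accumbens (NAc), ventral hippocampus (vHippo) and ventral tegmental area (VTA). The labels name no strain, sex, age, genotype or drug, and do not say whether the 3 libraries of a group are 3 animals or whether regions came from the same mice.

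The kinase mTOR works in a pair of complexes. Complex 1, built on Raptor (Rptor), promotes protein synthesis and represses autophagy when amino acids and growth factors are plentiful, and complex 2, built on Rictor, phosphorylates Akt. Growth factor signals reach complex 1 through PDK1 (Pdpk1) and Akt, which restrain the Tsc1 and Tsc2 brake on the small GTPase Rheb. Amino acid signals reach it on the lysosome through the Rag GTPases, their Ragulator anchor (Lamtor genes) and folliculin, with GATOR1 (Nprl2, Nprl3, Depdc5) and the sestrins as inhibitors. AMPK, a trimer of a catalytic, a beta and a gamma subunit, senses low energy and opposes mTOR complex 1, and both kinases act on the start of autophagy.

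RefSeq promoter windows (GRCm38.p6, from 250 bases before to 50 bases after a start) were found for 38 of the 42 genes, in 47 windows of 300 bases. The windows of Pdpk1, Sesn3 and Eif4ebp2 are printed because these are the members whose LHb levels differed together between naive low and the other groups, and that of Rragb because it has 3 E-boxes and the gene differed between regions. Pdpk1 has a further window, at chr17:24150873-24151172, which holds none of the motifs searched and is not printed. Capitals mark GGGCGG or its reverse complement CCGCCC, a core bound by Sp1-type factors, and CACGTG, the E-box core bound by basic helix-loop-helix factors. Each is written from 5′ to 3′ on the gene's strand.
Pdpk1, chr17:24141545-24141844, strand minus: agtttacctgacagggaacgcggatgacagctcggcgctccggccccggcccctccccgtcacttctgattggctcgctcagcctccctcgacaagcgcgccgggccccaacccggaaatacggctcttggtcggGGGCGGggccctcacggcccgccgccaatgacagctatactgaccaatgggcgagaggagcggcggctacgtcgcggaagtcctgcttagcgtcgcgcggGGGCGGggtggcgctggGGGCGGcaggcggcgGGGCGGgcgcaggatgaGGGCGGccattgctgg
Sesn3, chr9:14276051-14276350, strand plus: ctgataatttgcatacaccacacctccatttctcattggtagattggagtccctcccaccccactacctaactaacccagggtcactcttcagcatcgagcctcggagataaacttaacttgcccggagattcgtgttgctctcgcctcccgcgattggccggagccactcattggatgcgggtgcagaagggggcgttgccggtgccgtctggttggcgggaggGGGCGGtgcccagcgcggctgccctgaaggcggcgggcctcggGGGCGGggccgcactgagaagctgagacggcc
Eif4ebp2, chr10:61452620-61452919, strand minus: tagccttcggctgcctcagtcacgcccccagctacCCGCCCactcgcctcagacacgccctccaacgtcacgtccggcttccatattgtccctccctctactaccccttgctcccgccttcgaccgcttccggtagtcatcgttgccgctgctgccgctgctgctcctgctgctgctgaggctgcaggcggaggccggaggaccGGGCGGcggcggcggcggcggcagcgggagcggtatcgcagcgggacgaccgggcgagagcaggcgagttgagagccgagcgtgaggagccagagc
Rragb, chrX:153139708-153140007, strand plus: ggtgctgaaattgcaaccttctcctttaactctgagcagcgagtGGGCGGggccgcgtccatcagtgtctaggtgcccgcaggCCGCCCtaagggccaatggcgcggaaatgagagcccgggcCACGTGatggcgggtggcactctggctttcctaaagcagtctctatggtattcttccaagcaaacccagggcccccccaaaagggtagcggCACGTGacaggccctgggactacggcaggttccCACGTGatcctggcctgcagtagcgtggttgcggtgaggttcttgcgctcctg
Searched on both strands, GGGCGG was in 26 of the 47 member windows (55.3%) and in 35.7% of all 32851 windows in the table. CACGTG was in 7 member windows (14.9%, against 7.15% of all windows), those of Eif4e, Fnip1, Lamtor1, Lamtor4, Rheb, Rragb and Rragc. In Rragb the E-boxes began at −127, −36 and −3 relative to the start. GTAAACA, a forkhead core, was in 3 member windows (6.38%, against 3.65%), TGACGTCA, the cyclic AMP response element, in 1 (2.13%, against 1.79%), and TGATGCAA, an ATF4 element, in 0 (against 0.895%). Over the member windows, 1 pair of matches to different motifs overlapped, a forkhead and an Sp1-type match in Stk11. A match is a description of the letters in the window.

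The 12 LHb libraries held 56459734 to 79849567 counts each and the 30 others 53143878 to 81384893 counts each. The lowest count of a member in any library was 14 in LHb and 10 elsewhere, both for Eif4ebp1. Every LHb library held habenular transcripts (6 markers summing to 328 to 450 FPKM, fragments scaled to transcript length and library size, against 13.4 to 38.4 FPKM elsewhere). Several libraries stood apart in transcripts of other tissue. In LHb these were CRS low 2, naive high 3 and replicates 2 and 3 of CRS high, which held pancreas transcripts (12 of 12 markers found, summing to 410 to 530 FPKM, against at most 1.64 FPKM in the other LHb libraries), and naive low 1, CRS high 1 and CRS low 1 held choroid plexus transcripts (6 of 6 markers, 2890 to 7051 FPKM, against at most 101 FPKM). Among naive libraries of the other regions, VTA 2 had low VTA markers and high LH markers, NAc 1 had high mPFC markers, LH 2 had low LH markers and mPFC 3 had high vascular and meningeal markers. The CRS mPFC library 3 had low mPFC markers. Other CRS groups were uneven too, with LH markers at 4.79 to 165.5 FPKM in CRS VTA and VTA markers at 2.77 to 47.5 FPKM in CRS mPFC.

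Mean levels of the members over the 42 libraries ran from 0.437 to 48.9 FPKM. Rraga and Rragb, the GTPases that are active when bound to GTP in a Rag pair, had the highest means over the 42 libraries, 48.9 ± 9.07 and 47.9 ± 12.6 FPKM (SD, n = 42). Mtor itself had a mean of 11.4 ± 2.17 FPKM (SD, n = 42), and Rictor, at 4.20 ± 0.598 FPKM, was expressed at a lower level per length than Mtor. The lowest was Eif4ebp1, an inhibitor of cap-dependent translation, at 0.437 FPKM with a range of 0.0679 to 2.08 FPKM. The median coefficient of variation of the members within a group was 6.92% to 7.79% in the 4 LHb groups and 23.9% in CRS mPFC.

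In LHb, the members that changed were Pdpk1, Sesn3, Rictor and Eif4ebp2, and their changes were between naive low FST mice and other groups. Pdpk1 encodes the kinase that phosphorylates Akt and S6 kinase, and it lies at chr17:24073680-24141595 on the minus strand (GRCm38, as the table of 5 regions gives it). Its levels in the naive low libraries were 9.25, 10.4 and 8.65 FPKM, and in the naive high libraries 14.6, 13.7 and 14.5 FPKM. In CRS high they were 13.9, 15.5 and 14.3 FPKM, and in CRS low 12.2, 15.5 and 14.9 FPKM. All 3 naive low libraries were below all 9 others, and the remaining groups overlapped one another.

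Sesn3, a sestrin that restrains mTOR complex 1 and is at chr9:14275067-14333101 on the plus strand, was also lowest in naive low. Its levels were 7.40, 8.07 and 7.31 FPKM in naive low and 10.6, 10.7 and 9.44 FPKM in naive high. They were 13.2, 11.9 and 11.3 FPKM in CRS high and 9.26, 13.1 and 11.1 FPKM in CRS low. The naive low libraries were again below the 9 others, the lowest of which was CRS low 1. The naive high and CRS high libraries of Sesn3 did not overlap either, unlike those of Pdpk1. The same held for Lamtor3, Prkag2 and Prkab1. The share of all genes with such a gap was not counted, and 0 genes were called between naive high and CRS high.

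Rictor, at chr15:6708379-6780634 on the plus strand, stood at 3.12, 3.22 and 2.88 FPKM in naive low and 4.61, 4.14 and 3.97 FPKM in naive high. It stood at 4.496, 4.67 and 4.23 FPKM in CRS high and 2.84, 4.49 and 4.07 FPKM in CRS low. CRS low 1 lay just below the naive low range for this gene, so the groups overlapped there, while the 8 other libraries were all above it. CRS low 1 is one of the libraries with choroid plexus transcripts (4559 FPKM), and it was the lowest of the 6 CRS libraries for Pdpk1, Sesn3 and Rictor. The others did not share this order. CRS high 1 (2890 FPKM) was the highest LHb library for Sesn3 (13.2 FPKM) and the lowest of CRS high for Pdpk1 (13.9 FPKM). Naive low 1 (7051 FPKM) was the middle naive low library for Pdpk1, Sesn3 and Rictor.

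Eif4ebp2, the main eIF4E-binding repressor of cap-dependent translation in brain, at chr10:61428491-61452661 on the minus strand, went the other way. Its levels were 16.1, 15.4 and 15.4 FPKM in naive low and 13.3, 10.7 and 11.5 FPKM in naive high. They were 11.9, 12.9 and 12.5 FPKM in CRS high and 14.6, 13.7 and 13.1 FPKM in CRS low. The naive low libraries were above all 9 others, with CRS low closest to them. Pdpk1, Sesn3 and Eif4ebp2 were the 3 of 42 members whose naive low libraries were wholly below or above the other LHb libraries, which held for 6.47% of all genes tested.

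**Figure D1:**
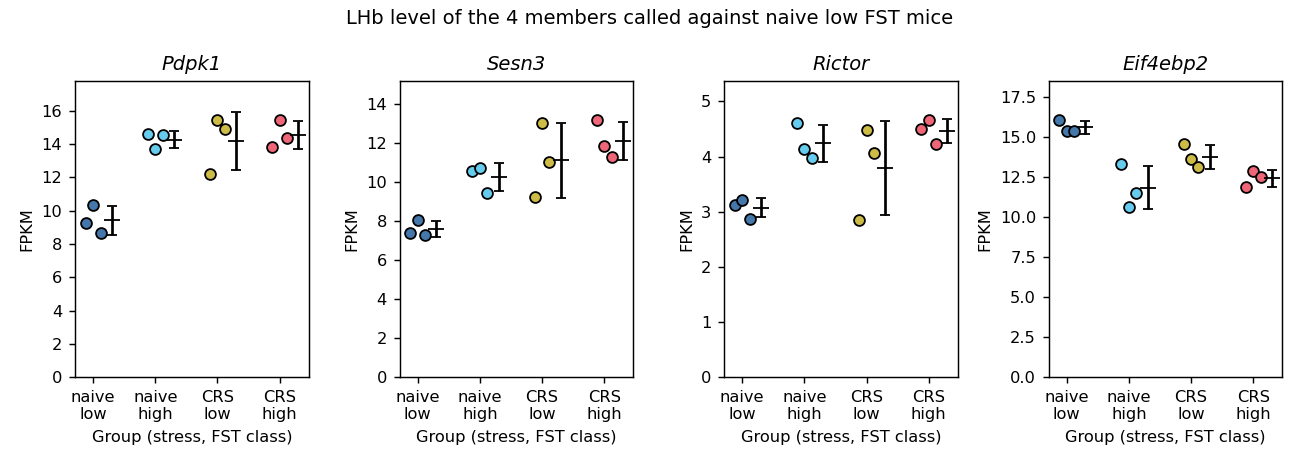
FPKM of Pdpk1, Sesn3, Rictor and Eif4ebp2 in the 12 LHb libraries, by group; points are libraries and bars are the mean ± SD of 3 libraries. Naive low libraries are the lowest 3 for Pdpk1 (8.65 to 10.4 FPKM) and Sesn3 and the highest 3 for Eif4ebp2, and CRS low 1 falls at the naive low level for Rictor.

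The comparison of naive high with naive low asks whether the members vary with FST immobility in mice without restraint stress. Of 42 members, 2 were higher and 1 lower (background 3.07% of 23266 genes called, 2.69% higher and 0.387% lower; edgeR's quasi-likelihood F test). The log2 fold change was 0.64 ± 0.10 for Pdpk1 (SE; adjusted p = 0.00353), 0.48 ± 0.11 for Sesn3 (adjusted p = 0.0350) and −0.36 ± 0.08 for Eif4ebp2 (adjusted p = 0.0224). Just outside the threshold were Rictor, with a log2 fold change of 0.51 ± 0.13 (adjusted p = 0.0591), and Fnip1, the folliculin partner (0.50 ± 0.13, adjusted p = 0.0719). Rictor was past the threshold with DESeq2 (adjusted p = 0.00544), without the choroid plexus libraries (adjusted p = 0.0182) and with only the 2 groups fitted (adjusted p = 0.0162). Eif4ebp2 lost its call in those last 2 settings (adjusted p = 0.0713 and 0.0525). Sesn3 lost its call with no filter (adjusted p = 0.0582) and with limma (adjusted p = 0.0977 and 0.0805 at pseudocounts 1 and 0.1). Mtor was at 0.02 (adjusted p = 0.936), Rptor at 0.06 (adjusted p = 0.783) and Deptor, an inhibitor bound to both complexes, at −0.22 (adjusted p = 0.819). The call of Pdpk1 was kept without any 1 of the 6 libraries (adjusted p at most 0.0221). The call of Sesn3 was kept only without naive low 2 (adjusted p 0.0563 to 0.133 without each of the 5 others) and that of Eif4ebp2 only without naive high 1 (0.0561 to 0.1003 without each of the 5 others).

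CRS high against naive low compares the groups farthest apart in behaviour. Of 42 members, 3 were higher and 1 lower (background 3.67% called, 3.32% higher and 0.348% lower). The rise was 0.64 ± 0.10 for Pdpk1 (adjusted p = 0.00267), 0.69 ± 0.11 for Sesn3 (adjusted p = 0.00363) and 0.56 ± 0.13 for Rictor (adjusted p = 0.0337). The log2 fold change of Eif4ebp2 was −0.31 ± 0.08 (adjusted p = 0.0404). The first 2 were called without any 1 of the 6 libraries (adjusted p at most 0.0182 and 0.0252). Rictor (adjusted p 0.0590 to 0.148) and Eif4ebp2 (0.0753 to 0.160) were called in none of the 6 leave-one-out fits. CRS low against naive low gave 2 members (background 2.19% called, 2.11% higher and 0.0774% lower), Pdpk1 at 0.59 (adjusted p = 0.00584) and Sesn3 at 0.55 (adjusted p = 0.0187), with Rictor at 0.31 (adjusted p = 0.381) and Eif4ebp2 at −0.18 (adjusted p = 0.391). Here the call of Sesn3 was lost without naive low 1, naive low 3, CRS low 2 or CRS low 3 (adjusted p 0.0648 to 0.103), and that of Pdpk1 was kept throughout (at most 0.0385). These 3 comparisons share the naive low libraries, so their values are given side by side and are not 3 independent results.

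Between all CRS and all naive LHb libraries 1 member passed, Sesn3, which rose by 0.38 ± 0.08 (adjusted p = 0.0325; background 1.17% called, 1.11% higher and 0.0645% lower). The median log2 fold change was −0.01 over the members and −0.0043 over all genes tested. The call was kept only without naive low 2, CRS high 3 or CRS low 1, and the adjusted p was 0.0501 to 0.104 without each of the 9 other libraries. Without the 3 naive low libraries the log2 fold change of Sesn3 was 0.14 (adjusted p = 0.681). Pdpk1 was at 0.30 ± 0.07 (adjusted p = 0.0617), Tsc1 at 0.21 ± 0.06 (adjusted p = 0.190), Mtor at 0.16 ± 0.07 (adjusted p = 0.337) and Rheb at −0.15 ± 0.06 (adjusted p = 0.334). Rptor was at 0.10 (adjusted p = 0.485), Tsc2 at −0.01 (adjusted p = 0.945) and Deptor at 0.22 ± 0.24 (adjusted p = 0.761). Rictor was at 0.18 ± 0.09 (adjusted p = 0.448) and at 0.27 (adjusted p = 0.0408) without CRS low 1. Of the AMPK catalytic subunits, Prkaa1 was at −0.05 (adjusted p = 0.807) and Prkaa2 at 0.16 ± 0.10 (adjusted p = 0.565). The other sestrins, Sesn1 and Sesn2, were at −0.04 (adjusted p = 0.863) and 0.09 (adjusted p = 0.806). In bulk tissue, fewer cells of a type and less RNA per cell cannot be told apart.

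Among the 3 LHb groups other than naive low, no member passed. CRS high against CRS low gave 0 members and 0 genes (0%; 494 genes and 1 member at an unadjusted p below 0.05, and 2 genes and 0 members with DESeq2), and the member of smallest p was Rps6kb1, the S6 kinase gene, at 0.19 ± 0.09 (unadjusted p = 0.0446, adjusted p = 1). CRS high against naive high gave 0 members and 0 genes (0%; 1277 genes and 3 members unadjusted, 21 genes and 0 members with DESeq2), with Lamtor3 at −0.29, Rheb at −0.26 and Prkag2 at −0.22 (adjusted p = 0.845 each). CRS low against naive high gave 0 members and 0 genes (0%; 1785 genes and 5 members unadjusted, 43 genes and 0 members with DESeq2), with Rheb at −0.27, Rps6kb1 at −0.21 and Eif4ebp2 at 0.19 (adjusted p = 0.645 each). The interaction of stress and FST class gave 0 members (background 0.202%, 0.0043% positive and 0.198% negative; 2 members unadjusted, and 1 with DESeq2). Pdpk1 had the smallest p there, at −0.59 ± 0.14 (adjusted p = 0.133), and Sesn3 was at −0.34 (adjusted p = 0.736). The median SE of a member's log2 fold change was 0.10 in comparisons of 3 against 3 LHb libraries.

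**Figure D2:**
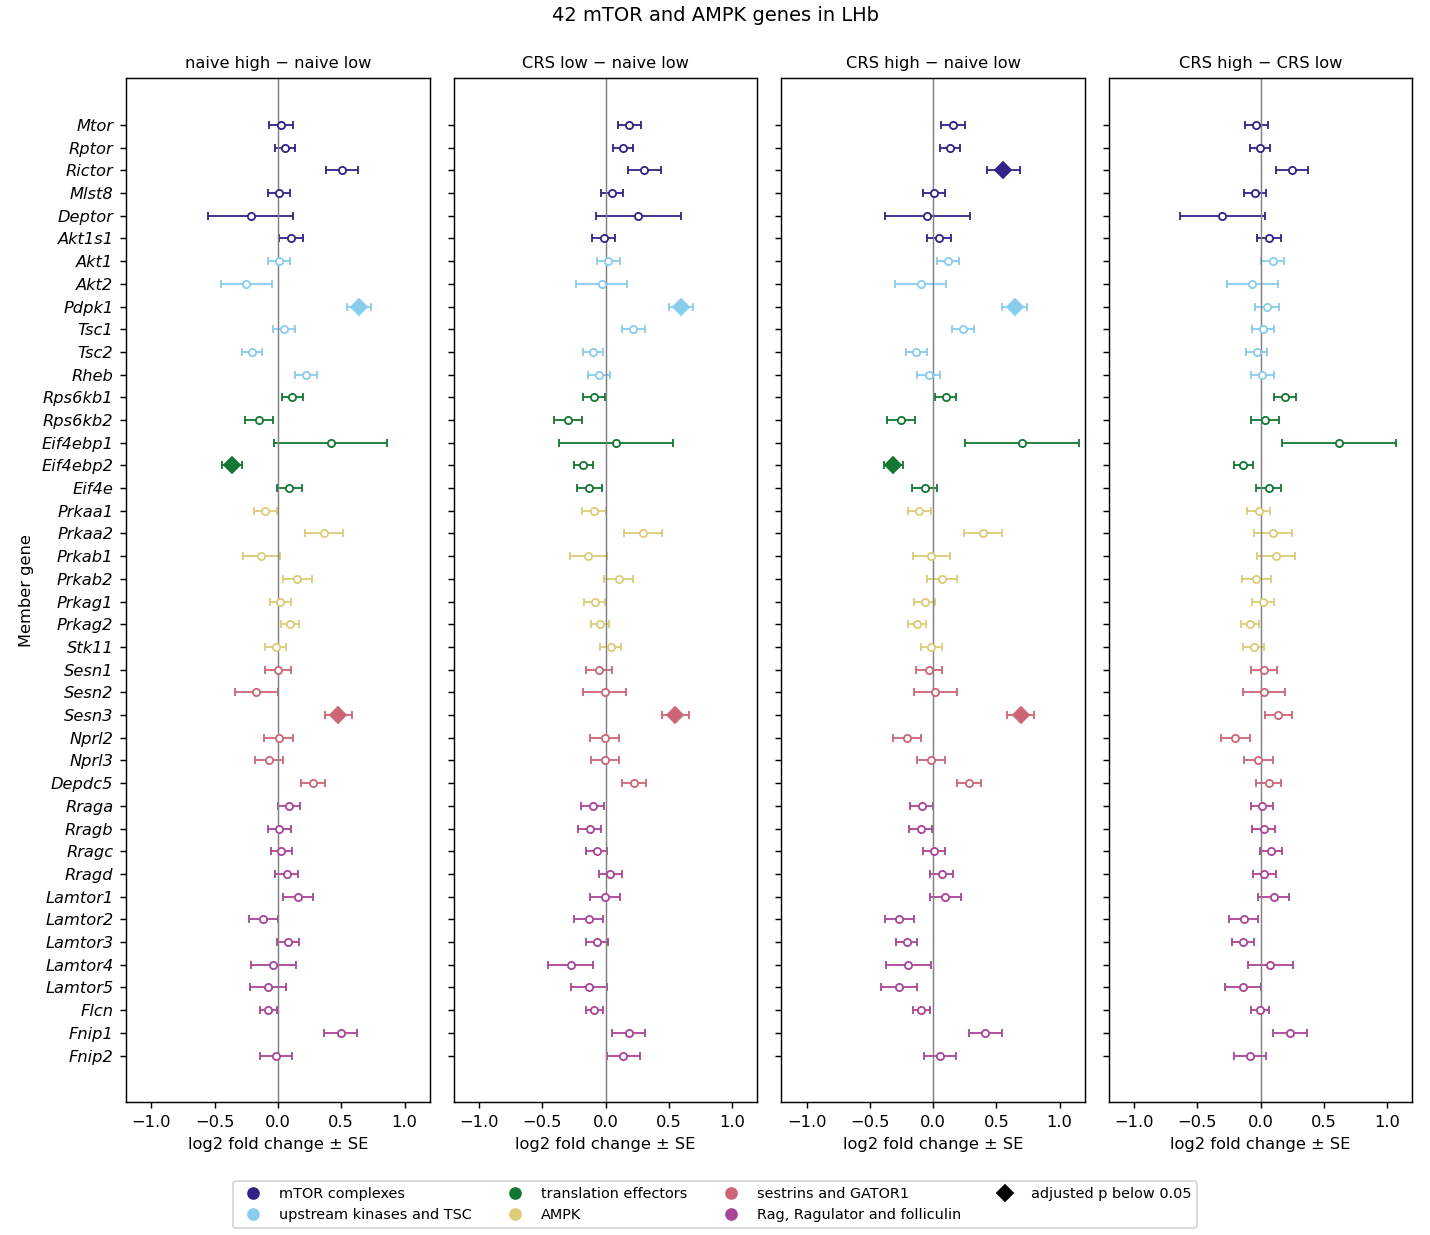
Log2 fold change ± SE of all 42 members in 4 LHb comparisons, grouped and coloured by role, from edgeR; diamonds mark an adjusted p below 0.05. The diamonds are Pdpk1 and Sesn3 in the 3 panels with naive low as the reference, Eif4ebp2 in 2 of these and Rictor in 1, and the panel of CRS high against CRS low has none.

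Several measures moved with the naive low group. Vascular markers (6 of 6 found, Cldn5 to Rgs5) summed to 51.7 to 78.0 FPKM in naive low and 34.7 to 54.6 FPKM in the 9 other libraries. The 3 members that were higher are long transcripts, 17366 nt for Rictor, 15662 nt for Sesn3 and 11215 nt for Pdpk1, against a median of 3430 nt over the genes tested and 5266 nt over the members. Other long members were called in no LHb comparison of the main test. These were Rptor (13822 nt), Tsc1 (12141 nt), Depdc5 (12093 nt) and Mtor (10368 nt). With an offset for transcript length, Pdpk1 stayed past the threshold in its 3 comparisons (log2 fold changes 0.45 to 0.53), and Sesn3 only in CRS high against naive low (0.40, adjusted p = 0.0267). With that offset Sesn3 was at 0.23 (adjusted p = 0.148) for CRS against naive and 0.25 (adjusted p = 0.155) for naive high against low, and Rictor was at 0.23 (adjusted p = 0.294) for CRS high against naive low. Eif4ebp2 kept its calls with the offset, at −0.32 (adjusted p = 0.0318) for naive high against low and −0.29 (adjusted p = 0.0475) for CRS high against naive low. Pancreas markers summed to at most 0.984 FPKM in naive low, and 4 of the 9 other libraries held pancreas transcripts. Without those 4 libraries the fold changes of Pdpk1 were 0.63, 0.57 and 0.55 in its 3 comparisons (adjusted p = 0.0787, 0.254 and 0.156) and no member was called in any LHb comparison. Sesn3 was then at 0.82 for CRS high against naive low, 0.53 for naive high against low and 0.44 for CRS low against naive low. For CRS high against naive low Rictor was at 0.57 and Eif4ebp2 at −0.38, and for naive high against low Eif4ebp2 was at −0.35. The part of vascular cells in these results was not tested, and for transcript length only the offset above was run.

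Other genes of the pathway were taken from 4 lists (inputs, nutrient sensing, complex assembly and outputs), of which 75 genes were tested in LHb. For CRS against naive 1 was higher (1.33%, against 1.17% of all genes), Acaca, the acetyl-CoA carboxylase that AMPK inhibits (0.40, adjusted p = 0.00957). For naive high against low 5 were higher and 0 lower (6.67% called, against 3.07%), with Acaca at 0.54 (adjusted p = 0.00627) and Gsk3b, a kinase that Akt inhibits, at 0.50 (adjusted p = 0.0117). For CRS high against naive low 6 were higher and 0 lower (8% called, against 3.67%), with Acaca at 0.64 (adjusted p = 0.00162), Gsk3b at 0.57 (adjusted p = 0.00469) and Phlpp2, an Akt phosphatase, at 0.56 (adjusted p = 0.0146). CRS low against naive low gave 3 higher and 0 lower (4% called, against 2.19%), with Acaca at 0.69 (adjusted p = 0.00134). Ddit4, a stress-induced inhibitor of mTOR complex 1, was not called (0.17 ± 0.16, adjusted p = 0.716, for CRS against naive and 0.55 ± 0.22, adjusted p = 0.228, for naive high against low).

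More members were called between regions than between stress groups. Over the 15 naive libraries of the 5 regions in the second table, 12 of 42 members differed between regions (28.6%; background 26.8% of 22877 genes called), a share close to that of all genes. By role these were 4 of 7 AMPK genes, 2 of 6 sestrin and GATOR1 genes, 3 of 12 Rag, Ragulator and folliculin genes, and 1 each of the 6 mTOR complex genes, the 6 upstream genes and the 5 translation genes. Over the 15 CRS libraries 13 members differed (background 30.5%), of which 11 were shared. In the CRS libraries Prkag1 did not pass (adjusted p = 0.242), and Pdpk1 and Rps6kb1 did. Habenula libraries are in the other table, so their levels are set beside these with no test.

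Prkag2, an AMPK gamma subunit at chr5:24862744-25100642 on the minus strand, had the smallest p between regions (adjusted p = 9.30e-06). Its naive levels were 19.1, 19.2 and 18.6 FPKM in vHippo and 12.2, 12.3 and 13.4 FPKM in mPFC. They were 10.01, 9.60 and 10.8 FPKM in NAc, 7.23, 7.12 and 7.29 FPKM in LH and 5.99, 8.25 and 6.16 FPKM in VTA. The vHippo, mPFC and NAc libraries did not overlap one another, LH and VTA overlapped, and habenula stood at 10.6 ± 0.542 FPKM (SD, n = 6). Against the mean of the 4 other regions, Prkag2 was higher in vHippo by 1.09 ± 0.09 (adjusted p = 8.38e-06) and mPFC by 0.42 ± 0.09 (adjusted p = 0.00965). It was lower in VTA (−0.76 ± 0.10, adjusted p = 0.000281) and LH (−0.69 ± 0.10, adjusted p = 0.00151). Among the 5 regions, the other gamma subunit, Prkag1, had its highest naive mean in VTA (18.3, 19.7 and 20.2 FPKM; 0.42 ± 0.11 above the other regions, adjusted p = 0.0148) and its lowest in vHippo (13.7, 12.7 and 12.8 FPKM). The highest naive library among these regions was LH 2 (23.0 FPKM), which has low LH markers. In habenula Prkag1 stood at 22.6 ± 1.25 FPKM (SD, n = 6). Prkag1 thus made up 39.8% to 41.6% of the summed FPKM of Prkag1 and Prkag2 in naive vHippo, 70.5% to 76.6% in VTA and 67.0% to 69.9% in habenula. Without strand, reads of Prkag1 and of the antisense gene B130046B21Rik, which covers 43.7% of its exonic bases, cannot be told apart, and the same holds for 12.3% of Prkag2 and Prkag2os2.

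The catalytic subunit Prkaa1, at chr15:5143861-5181899 on the plus strand, was highest in VTA (17.4, 12.3 and 13.7 FPKM) and LH (12.6, 12.04 and 13.4 FPKM). It was lowest in mPFC (7.51, 6.18 and 7.03 FPKM), whose 3 libraries lay below all VTA and LH libraries. The difference from the other regions was 0.67 ± 0.10 in VTA (adjusted p = 0.000757), 0.38 ± 0.11 in LH (adjusted p = 0.0423) and −0.62 ± 0.11 in mPFC (adjusted p = 0.00334). Habenula, at 13.6 ± 1.26 FPKM (SD, n = 6), was in the range of VTA and LH. Prkaa2, the catalytic subunit that predominates in skeletal muscle, was higher in mPFC than in the other regions (0.95 ± 0.23, adjusted p = 0.0167), where its libraries spread from 4.65 to 11.3 FPKM, and missed the threshold in the test over regions (adjusted p = 0.0648). Prkaa1 made up 40.0% to 60.2% of the catalytic FPKM in naive mPFC, 76.7% to 80.6% in VTA and 72.3% to 82.2% in habenula. Of the beta subunits, Prkab2 was highest in vHippo (10.1, 10.6 and 11.8 FPKM; 0.66 ± 0.16, adjusted p = 0.0151) and lowest in LH (5.04, 4.45 and 4.21 FPKM; −0.92 ± 0.18, adjusted p = 0.00755). Prkab1 was 21.8% to 27.6% of the beta subunit FPKM in vHippo and 44.7% to 49.4% in LH.

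**Figure D3:**
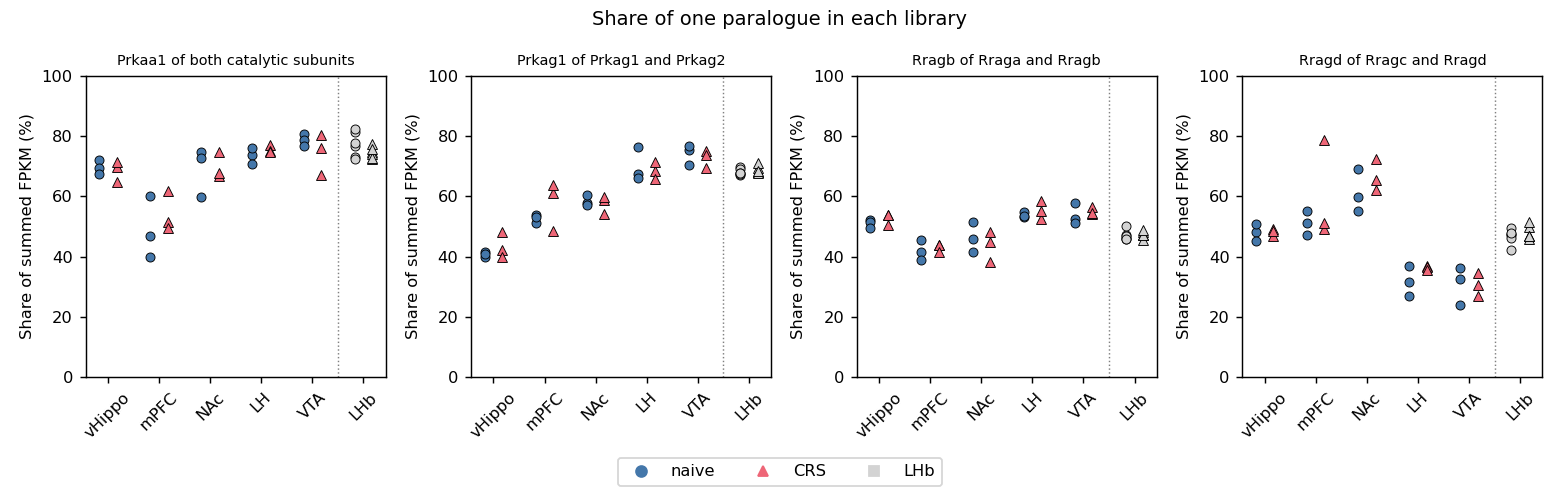
Share of the first-named gene in the summed FPKM of its paralogue pair, in percent, by region and library, for the AMPK catalytic and gamma subunits and for both Rag pairs. Prkag1 is the minor gamma transcript in vHippo (39.8% to 41.6% in naive libraries) and the major one in VTA and habenula, and Rragd exceeds Rragc in every naive NAc library (55.3% to 68.9%).

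The Rag GTPases differed between regions on both sides of the pair. Rragd, which pairs with RagA or RagB, is at chr4:32983037-33022180 on the plus strand and stood at 26.0, 27.0 and 37.4 FPKM in naive NAc. It stood at 9.17, 7.59 and 12.6 FPKM in LH and 7.75, 12.6 and 11.04 FPKM in VTA, all below the NAc libraries. The difference from the other regions was 1.13 ± 0.17 in NAc (adjusted p = 0.00106), −0.90 ± 0.19 in LH (adjusted p = 0.0123) and −0.75 ± 0.19 in VTA (adjusted p = 0.0142). Rragd was 55.3% to 68.9% of the summed Rragc and Rragd FPKM in NAc, 26.8% to 36.9% in LH and 42.3% to 49.5% in habenula. Rragb, the gene of the E-box window above, is at chrX:153139981-153171943 on the plus strand. It was highest in VTA (58.7, 65.4 and 58.5 FPKM; 0.60 ± 0.12, adjusted p = 0.00423) and lowest in mPFC (35.7, 25.4 and 29.4 FPKM; −0.62 ± 0.13, adjusted p = 0.00798), with no overlap between these 2 regions. Fnip1 was lower in VTA (−0.49 ± 0.15, adjusted p = 0.0318), and its call in the test over regions was lost without VTA 1, VTA 2 or NAc 3 (adjusted p 0.0507 to 0.0637).

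Sesn3 was higher in NAc than elsewhere, at 17.3, 24.2 and 26.2 FPKM in naive libraries against 9.44, 8.36 and 9.96 FPKM in vHippo. The difference from the other regions was 0.98 ± 0.15 in NAc (adjusted p = 0.00139) and −0.59 ± 0.17 in vHippo (adjusted p = 0.0317), and habenula, at 8.93 ± 1.55 FPKM (SD, n = 6), was at the vHippo level. Sesn2, a sestrin that binds leucine, was lowest in NAc and highest in vHippo among the 5 regions, with 2.81, 2.94 and 2.04 FPKM in NAc (−0.75 ± 0.15, adjusted p = 0.00826) and 5.34, 5.53 and 4.45 FPKM in vHippo (0.49 ± 0.14, adjusted p = 0.0310). Sesn3 made up 55.4% to 60.6% of the FPKM of the 3 sestrins in NAc and 32.5% to 42.8% in vHippo, and Sesn2 4.71% to 8.998% and 19.1% to 22.2%.

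Akt2, at chr7:27591552-27640826 on the plus strand, was higher in NAc (11.4, 9.58 and 12.4 FPKM) and mPFC (9.64, 9.16 and 13.6 FPKM) than in LH (5.01, 6.45 and 4.75 FPKM) or VTA (5.80, 5.64 and 6.21 FPKM), with no overlap. The differences from the other regions were 0.58 ± 0.11 (adjusted p = 0.00653), 0.60 ± 0.11 (adjusted p = 0.00381), −0.73 ± 0.12 (adjusted p = 0.00350) and −0.53 ± 0.12 (adjusted p = 0.00780) in that order. Akt1 was the most even member in its means, with a ratio of 1.09 between the highest and lowest of the 5 regions. Eif4ebp1, at chr8:27260329-27276674 on the plus strand, had the largest ratio of the 42, 5.35, with 1.14, 0.691 and 1.16 FPKM in mPFC and 0.259, 0.0679 and 0.233 FPKM in VTA. It was higher in mPFC by 1.51 ± 0.33 (adjusted p = 0.00967) and lower in VTA (−1.49 ± 0.41, adjusted p = 0.0217), on low counts. Deptor was lower in vHippo (1.303, 1.12 and 0.826 FPKM; −1.59 ± 0.45, adjusted p = 0.0322) and had its highest mean in LH, at 4.73 ± 1.28 FPKM (SD, n = 3).

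**Figure D4:**
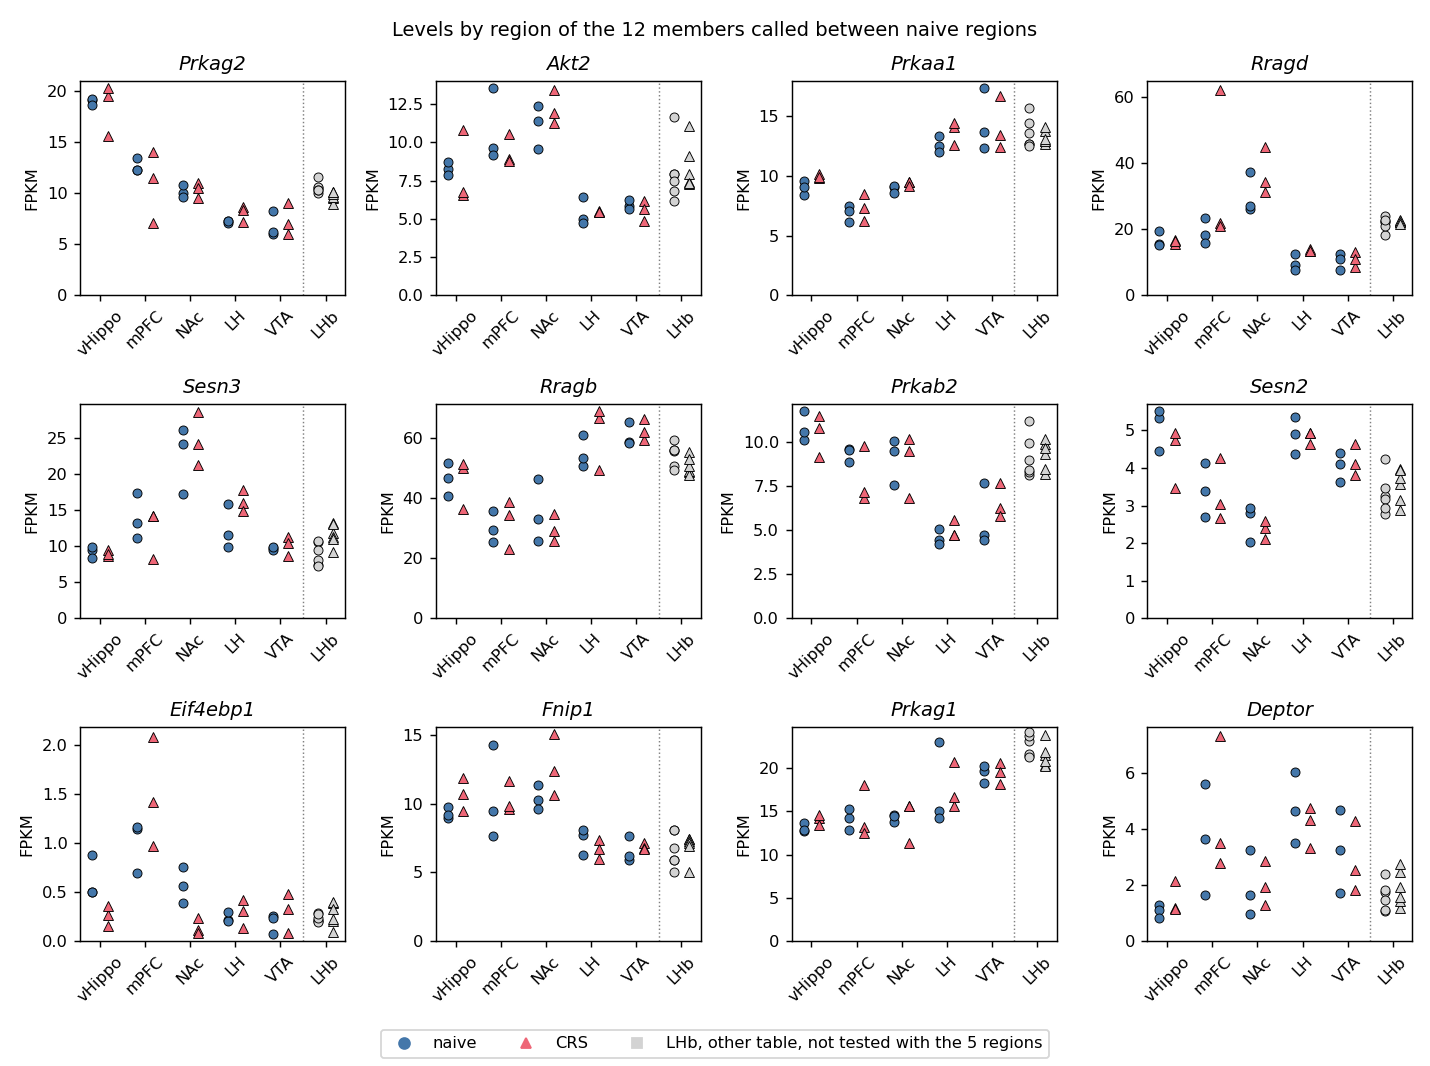
FPKM of the 12 members that differed between naive regions, by region; circles are naive and triangles CRS libraries, and grey marks habenula, which is in a separately normalised table. Prkag2 is highest in vHippo, Rragd and Sesn3 in NAc, and Prkaa1 and Rragb are lowest in mPFC.

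The 5 members of largest p between naive regions were Nprl2 (adjusted p = 0.981), Mtor (0.891), Fnip2 (0.852), Akt1 (0.776) and Lamtor3 (0.772), which does not show that their levels are equal. Mean Mtor ran from 9.18 FPKM in naive mPFC to 12.4 FPKM in naive habenula. Tsc2 (adjusted p = 0.0623) and Lamtor2 (0.0634) were just outside the threshold. Relative to the 4 other regions, 4 members were higher and 2 lower in vHippo (background 6.71% and 5.56%), 4 and 5 in VTA (10.2% and 8.02%), 3 and 1 in NAc (4.72% and 1.77%), 4 and 2 in mPFC (7.44% and 5.29%), and 1 and 4 in LH (4.43% and 3.72%). All 30 of these differences had the same sign in the CRS libraries, where 21 were called. Of the other pathway genes 29 of 76 tested differed between naive regions (38.2%, against 26.8% of all genes), with the smallest p for Foxo1 (adjusted p = 1.48e-05), a transcription factor that Akt inhibits.

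Of the 12 members, 9 were called without any 1 of the 15 naive libraries, the exceptions being Fnip1, Prkag1 and Deptor. Prkag1 was not called without any 1 vHippo or VTA library, or without NAc 2 or NAc 3 (adjusted p 0.0531 to 0.0922). Deptor was not called without any 1 vHippo library, VTA 3, NAc 2, mPFC 1, mPFC 2, LH 1 or LH 3 (adjusted p 0.0578 to 0.136). Without the 4 naive libraries that stand apart, 14 members were called and Fnip1 was not (adjusted p = 0.0649). Of the 30 differences above, 27 were then called and all 30 kept their sign, the others being Eif4ebp1 and Fnip1 in VTA and Tsc2 in vHippo. Oligodendrocyte markers (6 of 6 found, Mbp to Cnp) summed to 1611 to 3605 FPKM in naive VTA and 933 to 2167 FPKM in LH. They summed to 858 to 1621 FPKM in NAc, 123 to 367 FPKM in mPFC and 203 to 291 FPKM in vHippo, so they were high in VTA and LH, where Prkaa1, Prkag1 and Rragb had their highest means of the 5 regions, and also in NAc, where Prkaa1 was at 8.94 ± 0.307 FPKM (SD, n = 3). Their part in these differences was not tested.

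Outside habenula no member passed the threshold for CRS. In vHippo, VTA, NAc, mPFC and LH 0 of 42 members and 0 genes passed (0% of 20224, 20124, 20275, 20064 and 20206 genes tested; 0 members with DESeq2), and at an unadjusted p below 0.05 there were 3, 0, 1, 0 and 0 members and 1330, 325, 442, 314 and 1896 genes. DESeq2 called 43, 8, 1, 24 and 336 genes in the same order. In LH the count of 0 genes became 760 without naive library 3, with 0 members among them. A test of whether the CRS effect differed between these regions called 0 members and 0 of 24244 genes (1074 genes unadjusted and 34 with DESeq2). The median SE of a member's log2 fold change was smallest in vHippo (0.10) and largest in mPFC (0.25), with VTA (0.14), NAc (0.15) and LH (0.15) between them. The 4 members called in habenula ranged over the 5 regions from −0.23 to 0.17 for Pdpk1, −0.24 to 0.30 for Sesn3, −0.12 to 0.17 for Rictor and −0.0028 to 0.10 for Eif4ebp2.

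Eif4ebp1 had the largest fold changes. In NAc its naive levels were 0.760, 0.564 and 0.392 FPKM and its CRS levels 0.240, 0.118 and 0.0796 FPKM, with a log2 fold change of −1.92 ± 0.53 (unadjusted p = 0.00678, adjusted p = 1). In vHippo the naive levels were 0.873, 0.502 and 0.504 FPKM and the CRS levels 0.270, 0.359 and 0.149 FPKM (−1.26 ± 0.41, unadjusted p = 0.0171, adjusted p = 0.750). The CRS libraries lay below the naive ones in both regions, which did not pass over all genes. In mPFC, VTA and LH the groups overlapped and the values were positive, at 0.58 in mPFC and 0.61 in VTA. The other members of smallest p were Rps6kb1 (0.24 ± 0.07) and Akt1s1 (−0.19) in vHippo, both at an adjusted p of 0.750, Lamtor4 (−0.43) and Fnip1 (0.31) in NAc (adjusted p = 1), and Lamtor3 (0.24), Stk11 (−0.19) and Pdpk1 (−0.23) in VTA (adjusted p = 0.9998). In LH they were Tsc1 (0.31 ± 0.15, unadjusted p = 0.0692), Depdc5 (−0.33) and Rragd (0.40). In mPFC, Rragd was at 0.82 ± 0.41 (unadjusted p = 0.0825, adjusted p = 0.9996), with CRS library 3 at 62.0 FPKM and the other CRS mPFC libraries at 20.8 to 21.9 FPKM. That library is the one with low mPFC markers.

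**Figure D5:**
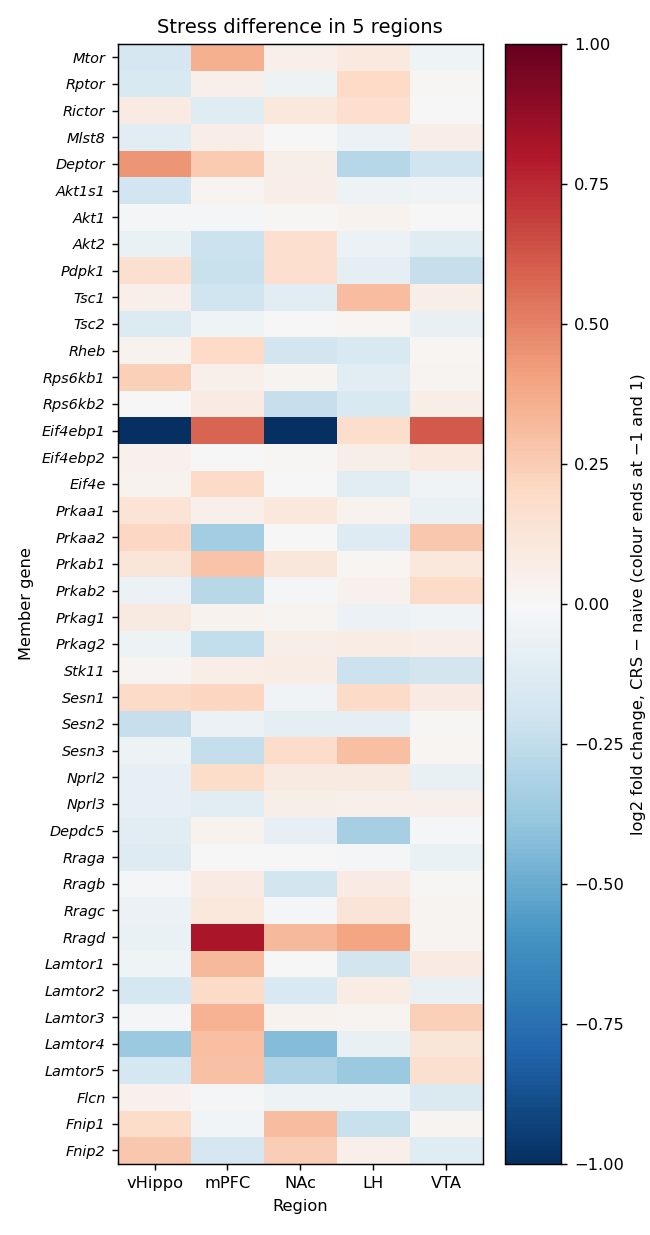
Log2 fold change of CRS against naive for the 42 members (rows, by role) in the 5 regions (columns), with colour ends at −1 and 1. No cell passed the threshold, and Eif4ebp1 lies beyond the scale in vHippo and NAc (−1.26 and −1.92).

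Counted by libraries, the CRS and naive values of 7 of 42 members did not overlap in vHippo (14.1% of all genes) and those of 6 in LH (15.8%). The same held for 3 in NAc (6.39%), 1 in mPFC (5.26%) and 1 in VTA (6.69%), so the shares of members were near those of all genes. In vHippo, Pdpk1, Prkaa1 and Rps6kb1 were above the naive libraries and Akt1s1, Eif4ebp1, Mtor and Rptor below. Oligodendrocyte markers summed to 277 to 1171 FPKM in CRS vHippo and 203 to 291 FPKM in naive vHippo, which overlap. The CRS vHippo libraries were above all naive ones for vascular markers (45.3 to 52.2 against 33.7 to 44.8 FPKM). They were also above for LH markers (9.13 to 16.7 against 6.17 to 6.83 FPKM). In LH, Akt1, Rictor, Rragc, Rragd and Tsc1 were above and Lamtor1 below. In that region the CRS libraries were below all naive ones for oligodendrocyte markers (632 to 839 against 933 to 2167 FPKM) and microglia markers (46.8 to 53.1 against 58.1 to 61.9 FPKM). The same held for neuron markers (543 to 615 against 616 to 780.2 FPKM), choroid plexus markers (5.32 to 10.4 against 15.1 to 23.8 FPKM) and leptomeninges markers (4.21 to 4.85 against 5.15 to 6.26 FPKM). VTA markers went the other way (30.5 to 37.8 FPKM in CRS LH against 14.0 to 29.9 FPKM in naive LH). Astrocyte markers overlapped (349 to 484 against 355 to 425 FPKM). The part of these cells and tissues in the differences in vHippo and LH was not tested. Of the 42 members, 1 (Prkab1) had the same sign in all 5 regions, with log2 fold changes of 0.02 to 0.29. It was called in none of them, and the share of all genes with the same sign throughout was not counted.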

How the data were processed

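Gene expression was measured by sequencing poly(A) RNA from 42 mouse brain samples in 14 groups. Per the file headers, the deposited tables hold read counts per gene beside FPKM. The submitters' processing notes name cutadapt 1.9, HISAT2 2.0.4, StringTie 1.3.4d and edgeR (no version) as the authors' tools; how reads were counted, and whether strand was used, is not given in the sources used here. The authors normalised FPKM per library and by transcript length. The notes name GRCm39, but 99.519% of gene starts in the table of 5 regions equal those of GENCODE M21 (GRCm38), against 2.181% in the LHb table, so coordinates are from the former. The tables were normalised separately, and tests were made only within a table. No sample matched 18 further count columns, which were left out.

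The main test was the two-sided quasi-likelihood F test of edgeR 4.0.16 (R 4.3.3) on counts, after TMM scaling and filterByExpr, with p-values adjusted by Benjamini-Hochberg over all genes tested and a threshold of 0.05. It gave each adjusted p printed with no tool beside it. LHb was fitted on 12 libraries with 4 group means, each other region on 6 libraries, regions on 15 naive libraries, and the CRS effect by region on 30. Alternatives were DESeq2 1.42.0, RLE factors, no filter, limma 3.58.1 on log2(FPKM + 1) and log2(FPKM + 0.1), a replicate block, an offset for transcript length recovered from counts and FPKM (lowess span 0.3), and libraries left out. The fits were tested on simulated data. Log2 fold changes carry the SE of the fit. The intervals rest on the number of libraries, which gives the precision; nothing states that replicates are separate animals, so p-values measure only the spread between libraries, which may be technical. Libraries of a group differed by more than sampling noise (chi-square per degree of freedom 24.1 to 427 over 42 pairs). Same-numbered libraries did not deviate together throughout any pair of groups (correlations −0.31 to 0.29, 0 of 21 pairs with every correlation above 0.1). Numbers were therefore not used to pair samples. In LHb, naive low 1, CRS high 1 and CRS low 1, which held choroid plexus transcripts, had correlations of 0.15 to 0.25 with one another.

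The members and lists were chosen with earlier results of these data known. Genes were named if past the threshold in a stress or FST comparison, the 3 of smallest p where none passed, 13 core genes whatever the result, the 15 of smallest and 5 of largest p between naive regions, and up to 3 other pathway genes per comparison.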

Additional observations from a re-analysis of the deposited data

How the results depend on the processing

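Most counts of members called in LHb are small and moved with the processing. For CRS against naive the main count of 1 was 2 with DESeq2, with the replicate block and without the choroid plexus libraries, and 0 with no filter, with limma at either pseudocount, with the length offset, without the pancreas libraries and without the naive low libraries; leaving out 1 library gave 0 to 3. For naive high against low the count of 3 was 5 with DESeq2 and with the replicate block, 4 without the choroid plexus libraries, 2 with no filter, limma at either pseudocount or the length offset, 0 without the pancreas libraries, and 1 to 3 without 1 library. For CRS high against naive low the count of 4 was 5 with DESeq2, 3 with RLE factors, the length offset or no choroid plexus libraries, 2 with no filter and with limma at either pseudocount, 0 without the pancreas libraries, and 2 without any 1 library. For CRS low against naive low the count of 2 was 3 without the choroid plexus libraries, 1 with the length offset, 0 without the pancreas libraries and with only the 2 groups fitted, and 1 to 3 without 1 library. For the interaction the count of 0 was 1 with DESeq2 and 0 to 1 without 1 library, the 1 being without CRS low 1.

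No call reversed in any alternative. Leaving out the pancreas libraries leaves 1 CRS high library, which is then assumed to vary like the other groups. Members called between naive regions numbered 11 to 17 under the alternatives and 10 to 16 without 1 library, against 12. Counts of members in the 5 CRS comparisons outside LHb were 0 under every alternative run, while the count of all genes in LH ran from 0 to 336 and, without 1 library, from 0 to 760. The replicate block was checked because groups share replicate numbers. The numbers gave no pairing that held at every replicate (0 of 21 pairs of groups with every correlation above 0.1). Under the block Rictor was called for naive high against low (log2 fold change 0.51, adjusted p = 0.0419). Eif4ebp1 had counts as low as 10, which limits its values. The CRS libraries in place of naive, and leaving out 4 naive libraries that stand apart, were chosen after seeing the data.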
